A study of Rattus norvegicus with 12 samples.

Results

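The metabotropic glutamate receptor genes Grm2 to Grm8 were followed in the dorsal striatum of parkinsonian rats under deep brain stimulation, L-DOPA or both. Every probe of the array that carries one of these 7 gene symbols was taken, which gave 10 probes out of 41012, and 7 genes out of 35623 on the array. None of these genes passed the threshold in any treatment group. The clearest separation was that of Grm4, whose signal was lower on all 3 DOPA arrays, and on all 3 HFS arrays, than on any 6-OHDA array. Of all tested genes, 3.11% were lower without overlap in DOPA and 2.34% in HFS. Both comparisons share the 6-OHDA arrays, and the Grm4 fold in HFS, 0.862, did not reach the limit of 0.8.

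These receptors are G-protein-coupled receptors for glutamate, the transmitter of the cortical and thalamic inputs to the striatum. The group I receptor mGlu5, the product of Grm5, acts through Gq and phospholipase C and is abundant in striatal projection neurons. Group II (mGlu2 and mGlu3) and group III (mGlu4, mGlu6, mGlu7 and mGlu8) act through Gi/o proteins, which lower cAMP. Most of the latter sit on nerve terminals and reduce transmitter release, while mGlu3 is also found on astrocytes and mGlu6 is known from the ON bipolar cells of the retina. Several of them have been studied as drug targets in Parkinson's disease and in L-DOPA-induced dyskinesia.

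All 12 male rats carried a unilateral lesion of the nigrostriatal dopamine pathway made with 9 µg of 6-OHDA, a toxin taken up by dopamine neurons, and no unlesioned rat was on the arrays. They formed 4 groups of 3, with 1 single-colour Agilent array per rat. The 6-OHDA group was left untreated. The HFS group had an electrode in the subthalamic nucleus on the lesioned side, and continuous pulses of 80 µs width were given there over 5 days, with a frequency of 130 Hz and a current of 60 µA. Rats of the DOPA group were injected 2 times a day for 19 days with 25 mg/kg of L-DOPA, the dopamine precursor, at a dose that induces dyskinesia, and with 12.5 mg/kg of benserazide, which blocks its conversion outside the brain. The DOPA/HFS group received the same L-DOPA course, with stimulation over its last 5 days. L-DOPA was last injected 12 h before killing, while stimulated rats were killed directly after stimulation ended. Between HFS and DOPA, treatment and time since treatment therefore cannot be told apart. Only the stimulated groups were implanted, so the implant and the stimulation cannot be told apart. In bulk tissue, fewer cells of a type and less RNA per cell cannot be told apart either.

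Values are log2 signals after quantile normalization between arrays, and a probe counted as detected where the scanner software marked it well above background. The share of such spots was 53.8% to 58.9% on the 6-OHDA arrays, 60.3% to 63.2% on HFS, 50.5% to 58.0% on DOPA and 60.0% to 62.8% on DOPA/HFS. DOPA/HFS replicate 3 stood apart, with 4175 spots marked as outliers against 2 to 25 on the others, and the Grm4 probe and 1 Grm8 probe were among those left out there. Arrays with the same replicate number shared a slide, so that each of the 3 slides held all 4 groups. Each group kept the same position on the slide, so position and treatment cannot be told apart. All 10 tested genes of striatal projection neurons were detected on 11 or 12 arrays, and the summed signal of the 9 with a value everywhere lay between 17.7 and 18.2 on every array. Of the 8 astrocyte markers, S100b was above background on 0 arrays. The summed signal of the 7 with a value on every array, whether detected or not, was 15.7 to 16.0 in all groups. Choroid plexus genes differed between arrays. Of the 10 listed genes, 8 had a value on every array, and their summed signal was 13.3 to 16.5 on HFS arrays. It was 11.7 to 12.6 on 6-OHDA, 11.8 to 14.3 on DOPA and 12.0 to 12.4 on DOPA/HFS arrays. The filter on dim probes, a separate rule that was not applied to this sum, also left 8 of the 10. All 8 that passed it had an unadjusted limma p under 0.05 for higher signal in HFS. The part of these differences in the HFS values below was not tested.

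All receptor genes but Grm6 were well above background on enough arrays (a share of 0.4 or more) to enter a fit over 20407 genes. A call needed a fold over 1.2 or under 0.8 and an adjusted p (Benjamini-Hochberg) under 0.1. Of the 6 receptor genes, 0 were called in HFS vs 6-OHDA, where 0% of all genes were called. Likewise 0 were called in DOPA vs 6-OHDA, where 0.0049% of all genes (1 gene) were called, and 0 in DOPA/HFS vs 6-OHDA, where the share was 0%. At an unadjusted limma p under 0.05, 0 of 6 passed in HFS (2.34% of all genes), 1 of 6 in DOPA (2.59% of all genes) and 0 of 6 in DOPA/HFS (2.75% of all genes). The 1 gene was Grm4. With so few called over the whole array, the absence of calls among 6 receptor genes is not particular to them. The median log2 change of the 6 genes came to 0.06 for HFS, -0.03 for DOPA and 0.06 for DOPA/HFS, beside medians of 0.01, -0.01 and -0.01 over all tested genes. The 3 comparisons share the 6-OHDA arrays. With 3 arrays against 3, an exact permutation test cannot give a two-sided p below 0.1.

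**Figure D1:**
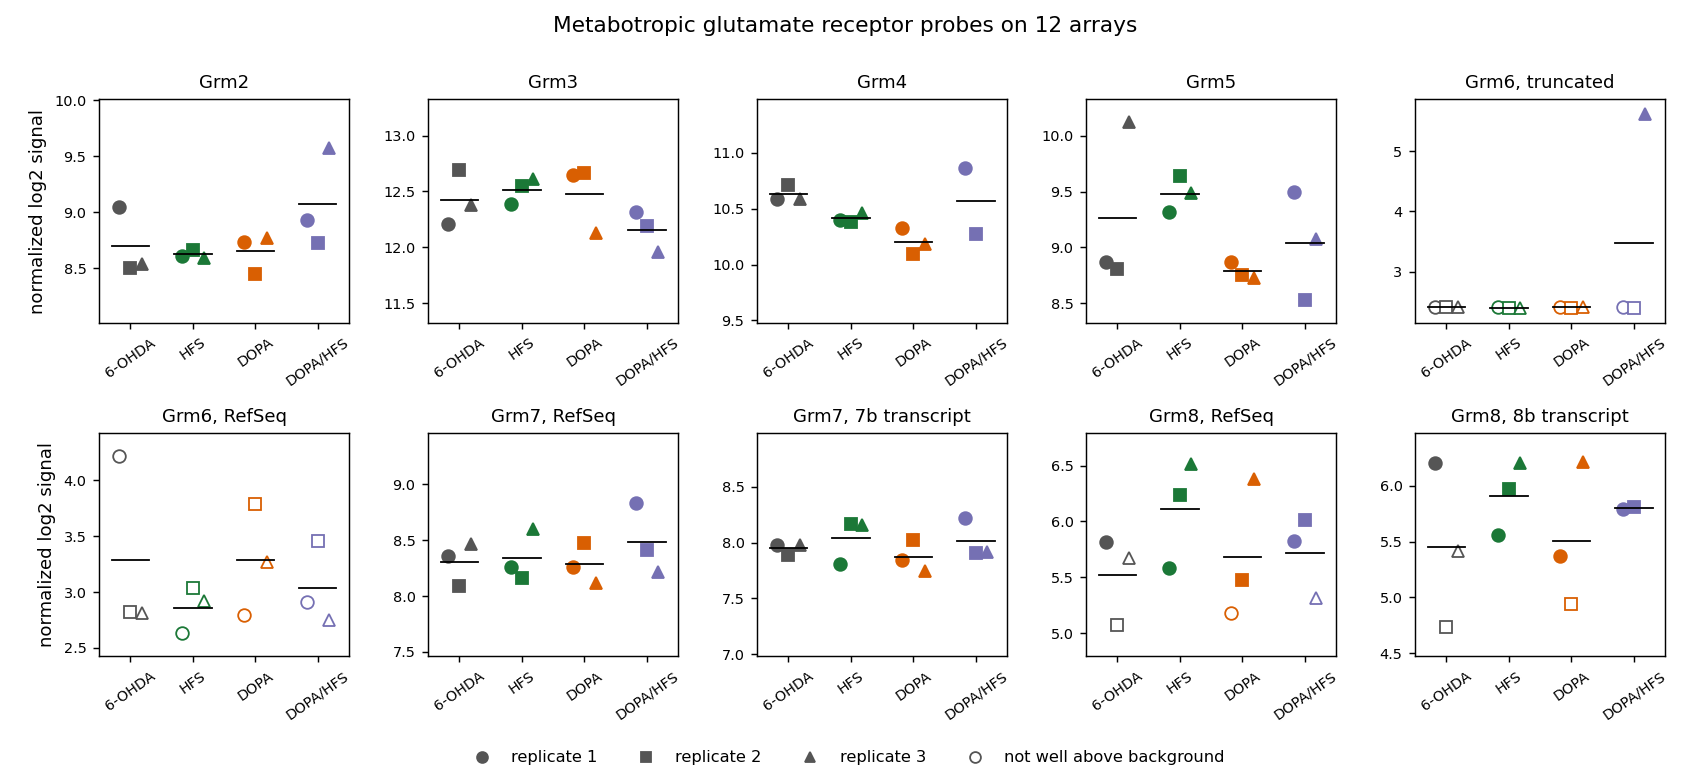
Normalized log2 signal of the 10 receptor probes (y axis, with a different range in each panel but never less than 2 log2 units) on the arrays of the 4 groups (x axis). Each symbol is 1 array, open symbols were not well above background, and the line is the group mean. For Grm4, the 3 DOPA arrays (10.09 to 10.33) and the 3 HFS arrays (10.38 to 10.46) lie below the 6-OHDA arrays (10.59 to 10.71), while the Grm6 probes are open on nearly every array.

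Grm4 encodes mGlu4, a group III receptor on corticostriatal and striatopallidal terminals whose activation reduces transmitter release. Its log2 signal was 10.59, 10.71 and 10.59 on the 6-OHDA arrays and 10.40, 10.38 and 10.46 on the HFS arrays. It was 10.33, 10.09 and 10.19 on the DOPA arrays. On DOPA/HFS it was 10.86 and 10.28 on replicates 1 and 2, and the spot of replicate 3 was marked as an outlier, with 11.01 had it been kept. The 6-OHDA, HFS and DOPA arrays thus formed 3 ranges in falling order with no overlap. How many of all genes show such an order of 3 ranges was not counted. The DOPA/HFS arrays lay 1 above the 6-OHDA range and 1 within the DOPA range.

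In the DOPA group the log2 change of Grm4 was -0.43 (SE 0.16, 95% confidence interval -0.79 to -0.06), a fold of 0.744. The unadjusted limma p was 0.0268 and the adjusted p 0.99998, so the gene was not called. The difference was negative on each slide, at -0.26, -0.62 and -0.40. The exact permutation p was 0.1, the smallest this design allows. Without overlap the signs on the slides and this p are fixed, so they add no support of their own. In the HFS group the change was -0.21 (SE 0.16, interval -0.58 to 0.15, limma adjusted p = 0.998), with -0.19, -0.33 and -0.13 on the single slides. These signs too were fixed by the lack of overlap. Grm4 was the only receptor gene without overlap with 6-OHDA in either comparison, and 2.34% of all genes were lower without overlap in HFS and 3.11% in DOPA. The fold in DOPA lay beyond the limit of 0.8 and that in HFS, 0.862, did not. The choroid plexus signal overlapped between the DOPA and 6-OHDA arrays. Of 5 endothelial markers 0 had an unadjusted limma p under 0.05 in DOPA and 1 was higher without overlap. The summed signal of the 4 with a value everywhere was higher on the DOPA arrays (12.97 to 13.23) than on the 6-OHDA arrays (12.78 to 12.82), and its part in the Grm4 values was not tested.

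In the combined treatment the Grm4 arrays overlapped with those of 6-OHDA. From the 2 arrays with a value, Grm4 in DOPA/HFS differed from 6-OHDA by -0.06 on the log2 scale (SE 0.18, interval -0.47 to 0.35), by 0.27 on the slide of replicate 1 and by -0.43 on that of replicate 2. Against DOPA, its difference was 0.37 (SE 0.18, interval -0.04 to 0.77, limma adjusted p = 0.99999), with 0.53 and 0.18 on the same slides. It was 0.07 without DOPA/HFS replicate 1 and 0.66 without replicate 2. The interaction, which asks whether the HFS difference with L-DOPA departs from that without it, was 0.58 for Grm4 (SE 0.25, interval 0.03 to 1.13). Its unadjusted limma p of 0.0405 was under 0.05 for 1 of the 6 receptor genes, against 1.97% of all genes, and the adjusted p was 0.99996. It rested in part on DOPA/HFS replicate 1, without which it was 0.29, while it was 0.87 without replicate 2 and 0.71 with the outlier spot kept.

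**Figure D2:**
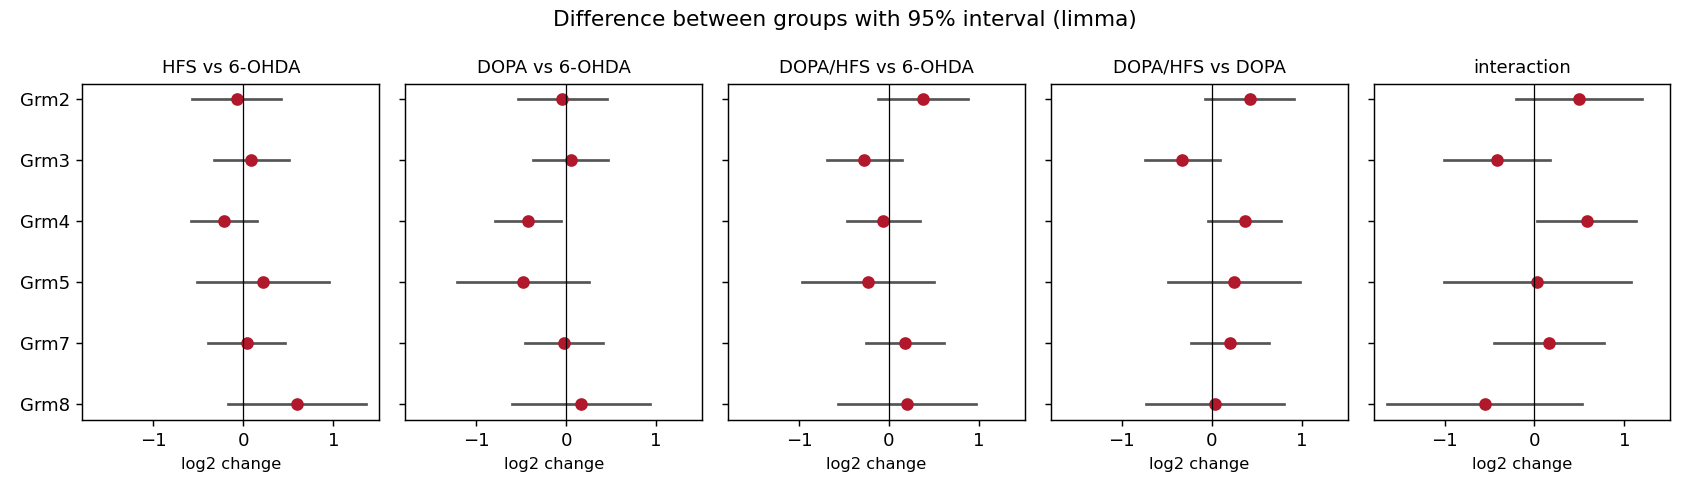
Difference in log2 signal (x axis) for the 6 receptor genes that passed the filter (y axis) in 5 comparisons. Points are limma estimates over 12 arrays and lines 95% confidence intervals. The intervals of Grm4 in DOPA vs 6-OHDA (-0.79 to -0.06) and in the interaction (0.03 to 1.13) leave out 0, and all others include it.

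Grm5, the group I receptor gene, was measured by 1 probe printed in 10 spots on each array. Its log2 signal was 8.87, 8.80 and 10.12 on the 6-OHDA arrays, 9.31, 9.64 and 9.49 on HFS, 8.87, 8.76 and 8.73 on DOPA, and 9.50, 8.53 and 9.08 on DOPA/HFS. The DOPA arrays lay close together at the low end, the HFS arrays were high, and the 6-OHDA and DOPA/HFS arrays were spread over both. Within an array the SD over the 10 spots was 0.03 to 0.11, which covers reading error on the array only.

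The log2 change of Grm5 was 0.22 in HFS (SE 0.33, interval -0.52 to 0.95), -0.48 in DOPA (interval -1.21 to 0.25) and -0.23 in DOPA/HFS (interval -0.96 to 0.50). The array of 6-OHDA replicate 3 decided these values. Without it the differences became 0.64, -0.05 and 0.20 in the same order, with no adjusted limma p under 0.1. Over both levels of stimulation, the 6 arrays with L-DOPA differed from the 6 without by -0.46 (SE 0.24, interval -0.98 to 0.06). Without 6-OHDA replicate 3 it was -0.25. For the difference over all arrays the exact permutation p was 0.0909 and the limma adjusted p 0.9998.

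The groups treated with stimulation alone and L-DOPA alone were compared directly only after the values had been seen. Grm5 was 0.70 higher on the log2 scale in HFS than in DOPA (SE 0.33, interval -0.04 to 1.43, limma adjusted p = 0.984). The arrays did not overlap, which alone makes the difference positive on all 3 slides. This comparison does not involve the 6-OHDA arrays, and the 2 groups also differed in the time from treatment to killing. Of all tested genes, 7.18% were higher in HFS than in DOPA without overlap, and the receptor genes among them were Grm5 and Grm4, the latter with a difference of 0.21 (SE 0.16). The choroid plexus signal was 13.3 to 16.5 on the HFS arrays and 11.8 to 14.3 on the DOPA arrays. The summed signal of 9 projection neuron markers was 17.84 to 17.93 on HFS and 18.01 to 18.17 on DOPA arrays, and the part of either in this difference was not tested.

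A separate probe, described in the array files as the 5b splice form of this receptor but not listed under the symbol Grm5, gave 8.96, 8.69 and 10.22 on 6-OHDA, 9.26, 9.76 and 9.71 on HFS, 9.01, 8.80 and 9.12 on DOPA, and 9.81, 8.54 and 8.83 on DOPA/HFS. The same 6-OHDA array was again the highest. Over the 12 arrays its Pearson correlation with the Grm5 probe was 0.94, the closest pattern to Grm5 of all tested genes. Its difference between HFS and DOPA was 0.60 (SE 0.40), also without overlap. Both probes read the same RNA samples, so they are 2 readings of each rat and not separate samples.

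**Figure D3:**
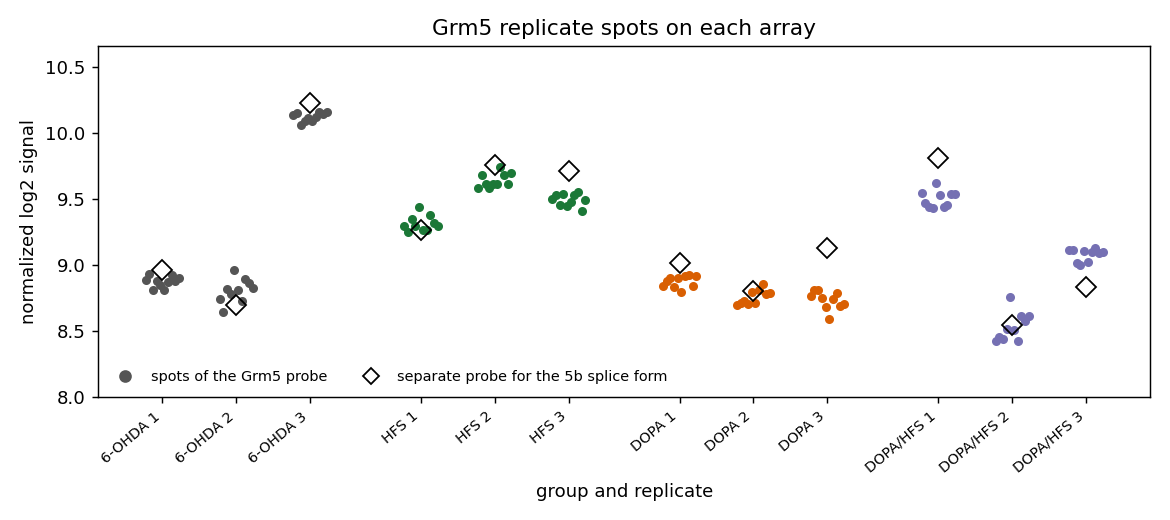
Normalized log2 signal (y axis) of the 10 Grm5 spots (filled circles) and of the separate probe for the 5b splice form (open diamonds) on each of the 12 arrays (x axis, group and replicate). The spots of 1 array lie close together (SD 0.03 to 0.11), and 6-OHDA replicate 3, at 10.12, is above all other arrays.

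The arrays of the group II genes overlapped between 6-OHDA and each treatment. Grm2, the gene for a presynaptic receptor of glutamate terminals, had a log2 signal of 9.05, 8.50 and 8.53 on 6-OHDA, 8.61, 8.67 and 8.59 on HFS, 8.73, 8.45 and 8.77 on DOPA, and 8.93, 8.72 and 9.57 on DOPA/HFS. The highest value was that of DOPA/HFS replicate 3, the array with many outlier spots, and the HFS arrays kept within a narrow range. Its changes vs 6-OHDA under HFS, DOPA and DOPA/HFS were -0.07, -0.04 and 0.38 (the last with an interval of -0.12 to 0.88), each with an SE of 0.23. Without DOPA/HFS replicate 3 the last became 0.13. It was 0.22 with the outlier spots kept and 0.18 in the deposited log2 table.

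Grm3 encodes mGlu3, present on astrocytes as well as neurons. Its log2 signal was 12.21, 12.69 and 12.37 on 6-OHDA, 12.39, 12.55 and 12.61 on HFS, 12.65, 12.66 and 12.13 on DOPA, and 12.31, 12.19 and 11.96 on DOPA/HFS. The DOPA/HFS arrays had the lowest mean and lay below all HFS arrays, but overlapped with 6-OHDA and DOPA. The changes of Grm3 vs 6-OHDA under HFS, DOPA and DOPA/HFS were 0.09, 0.05 and -0.27 (the last with an interval of -0.69 to 0.14), each with an SE of 0.19. The last was -0.14 without 6-OHDA replicate 2 and -0.17 without DOPA/HFS replicate 3. Scaling to the 75th percentile turned the sign of the HFS value, so no direction is given for it. A further probe described as similar to mGluR3, under another gene name, differed from 6-OHDA by 0.28 under HFS, 0.07 under DOPA and 0.11 under both (SE 0.28).

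Between DOPA/HFS and DOPA, the comparison in which stimulation was added to L-DOPA, the group II genes differed in opposite directions. Grm2 was higher by 0.42 (SE 0.23, interval -0.07 to 0.92), with 0.19, 0.27 and 0.80 on the single slides, and by 0.17 without DOPA/HFS replicate 3. With the outlier spots kept this Grm2 difference was 0.26, and in the deposited log2 table it was 0.20. Grm3 was lower, with a log2 difference of -0.33 (SE 0.19, interval -0.74 to 0.09) and of -0.33, -0.47 and -0.17 on the single slides. Both had a limma adjusted p of 0.99999 and overlapping arrays. Of the 6 receptor genes, 0 were called here and 0 were without overlap, against 0% and 10.6% of all genes. At an unadjusted limma p under 0.05 there were 0 receptor genes, against 3.78% of all genes. The summed endothelial signal was 12.97 to 13.23 on DOPA arrays and 12.70 to 12.86 on DOPA/HFS arrays, and its part in these differences was not tested. DOPA/HFS was set against HFS, the step in which L-DOPA was added to stimulation, only after the values had been seen. Grm2 was higher by 0.45 (SE 0.23, interval -0.04 to 0.95) and Grm3 lower, with -0.36 (SE 0.19, interval -0.78 to 0.05). Neither overlapped, which fixes the exact permutation p at 0.1 for each, and both limma adjusted p values were 0.9999. They were 2 of the 6 receptor genes without overlap in this comparison, against 7.11% of all genes, while 0 receptor genes and 0% of all genes were called, and 0 receptor genes and 2.43% of all genes had an unadjusted limma p under 0.05. Without DOPA/HFS replicate 3 the Grm2 difference was 0.20. It was 0.29 with the outlier spots kept and 0.23 in the deposited log2 table. The choroid plexus signal was also apart between these groups, at 13.3 to 16.5 on HFS and 12.0 to 12.4 on DOPA/HFS arrays, and its part was not tested.

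The interaction was 0.50 for Grm2 (SE 0.32) and -0.42 for Grm3 (SE 0.27). The value for Grm2 was 0.25 without DOPA/HFS replicate 3 and 0.25 in the deposited log2 table. Over all 12 arrays, the correlation between Grm2 and Grm3 was -0.77, the farthest from 0 of the 15 pairs of receptor genes, and the others ranged from -0.19 to 0.45. The arrays share their slides and their normalization, so these correlations are given as a description only.

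Grm7 encodes mGlu7, a widespread group III receptor of presynaptic active zones. Its brighter probe gave 8.35, 8.09 and 8.47 on 6-OHDA, 8.26, 8.17 and 8.60 on HFS, 8.26, 8.47 and 8.12 on DOPA, and 8.83, 8.41 and 8.22 on DOPA/HFS. The groups lay over each other, with changes vs 6-OHDA of 0.04 with HFS, -0.02 with DOPA and 0.18 with both (SE 0.20). These were the smallest differences in HFS and DOPA among the 6 genes. A probe for the 7b transcript ranged from 7.75 to 8.22 over all arrays and changed by 0.09, -0.08 and 0.06 in the same order (SE 0.15). The correlation between these probes over 12 arrays was 0.68. The 95% interval of Grm7 was -0.39 to 0.47 in HFS, -0.45 to 0.41 in DOPA and -0.25 to 0.61 in DOPA/HFS. With 3 arrays per group, differences within these intervals were not excluded.

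Grm8, the gene of the presynaptic group III receptor mGlu8, was near the limit of detection. Its brighter probe was well above background on 1 of 3 6-OHDA arrays, 3 of 3 HFS arrays, 2 of 3 DOPA arrays and 2 of 3 DOPA/HFS arrays. The log2 signal was 5.81, 5.07 and 5.67 on 6-OHDA, 5.58, 6.24 and 6.52 on HFS, 5.18, 5.47 and 6.38 on DOPA, and 5.83, 6.02 and 5.31 on DOPA/HFS. HFS had the highest mean, with overlap. The change in HFS was 0.59 (SE 0.35, interval -0.17 to 1.36, limma adjusted p = 0.998), beside 0.16 in DOPA and 0.20 in DOPA/HFS. The HFS difference was 0.37 without 6-OHDA replicate 2, and in the log2 table deposited by the authors it was 0.14. With the outlier spots kept, the other Grm8 probe, at 8.34 on DOPA/HFS replicate 3, became the brighter and stood for the gene. The DOPA/HFS difference, then taken from that probe, was 1.17. The HFS arrays also had more spots above background (60.3% to 63.2%) than the 6-OHDA arrays, and the part of this in the Grm8 values was not tested. This other probe, for the 8b splice insertion, gave a change of 0.46 in HFS (SE 0.39). Its correlation with the first over 11 arrays was 0.86.

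Grm6, the gene of the retinal receptor mGlu6, was the only receptor gene not to pass the filter. The probe for its reference transcript was well above background on 0 of 12 arrays. The probe for a putative truncated transcript was above background on 1 array, DOPA/HFS replicate 3, with a log2 signal of 5.62 against 2.39 to 2.42 on the other arrays. No fold is given for Grm6.

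The order of the group means differed from gene to gene. It was 6-OHDA, DOPA/HFS, HFS and DOPA from high to low for Grm4, where keeping the outlier spot put DOPA/HFS first. It was HFS, 6-OHDA, DOPA/HFS and DOPA for Grm5, where leaving out single arrays moved 6-OHDA against its neighbours. For Grm2 the DOPA/HFS mean was the highest and for Grm3 the lowest, and the other 3 groups overlapped and had no settled order. For Grm7 and Grm8 all groups overlapped and the order changed with the processing. For Grm4, the pairs 6-OHDA and HFS, HFS and DOPA, and 6-OHDA and DOPA did not overlap, and every pair with DOPA/HFS did. For Grm5 only HFS and DOPA were apart. The F test over the 4 groups ranked Grm4 first among them, and all 6 genes had a limma adjusted p of 0.9999, while 0.0049% of all genes were called.

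Genes whose products act around these receptors were followed at the RNA level. The list held 54 genes for glutamate transport and metabolism, scaffolds and partners, transduction and desensitization. Of these, 49 passed the filter and 0 were called in any of the 3 treatment groups. At an unadjusted limma p under 0.05, 1 passed in DOPA and 0 in HFS and DOPA/HFS. In HFS, 4 of the 49 were higher and 1 lower without overlap (10.2%, against 5.15% of all genes). In DOPA, 4 were higher and 0 lower (8.16%, against 6.27%), and in DOPA/HFS 1 was higher and 1 lower (4.08%, against 5.08%). The median change of the 49 in the 3 groups, in that order, was 0.01, 0.02 and -0.01.

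**Figure D4:**
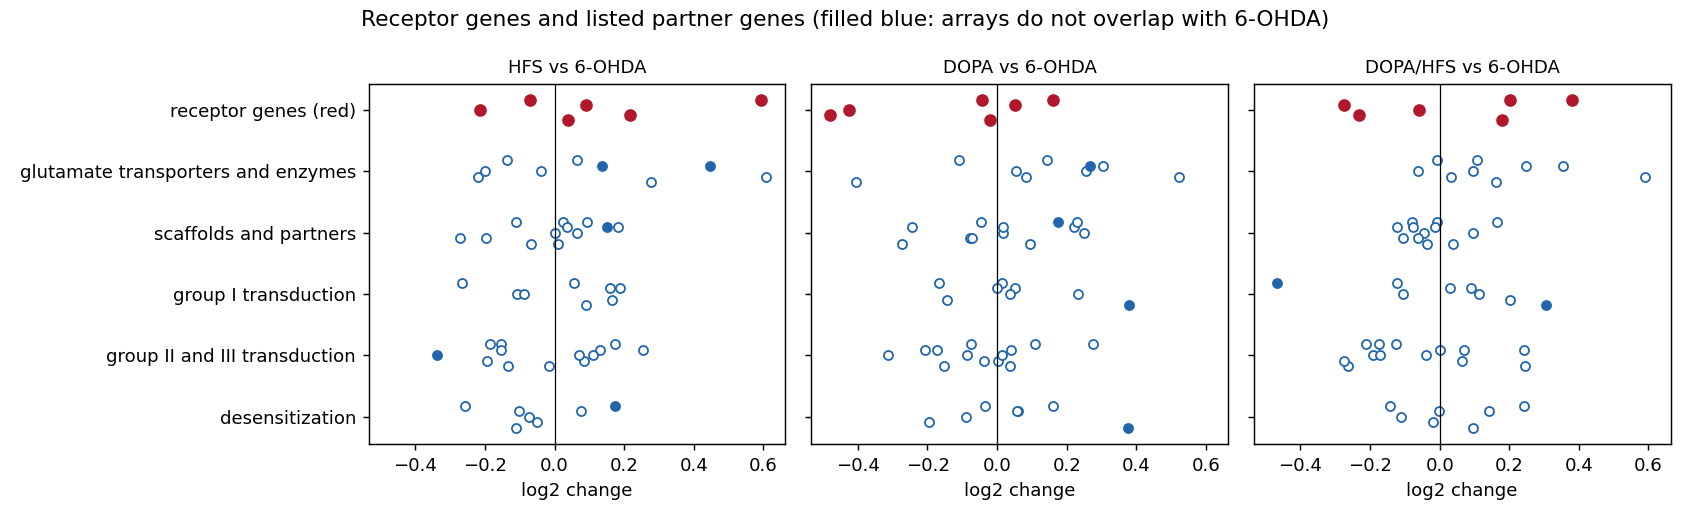
Log2 change vs 6-OHDA (x axis) of the 6 receptor genes (red) and of 49 genes that act with them, by role (y axis), in the 3 treatment groups. Filled blue circles are genes whose treated arrays do not overlap with the 6-OHDA arrays, of which there are 5 for HFS, 4 for DOPA and 2 for DOPA/HFS. The medians of the 49 genes lie between -0.01 and 0.02.

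Glul encodes glutamine synthetase, the astrocyte enzyme that converts glutamate into glutamine. Its log2 signal was 12.49, 12.22 and 12.69 on 6-OHDA and 12.71, 12.85 and 13.19 on HFS, a difference of 0.45 (SE 0.24, limma adjusted p = 0.998). Every HFS array was above every 6-OHDA array, though HFS replicate 1 by a narrow margin. The Glul difference was 0.30 in DOPA and 0.35 in DOPA/HFS, both with overlap. Slc1a2, the gene of the main astrocyte glutamate transporter, had 11.22, 11.27 and 11.28 on 6-OHDA and 11.50, 11.53 and 11.53 on DOPA. The difference was 0.27 (SE 0.14, limma adjusted p = 0.99998), and these 2 groups were tight and apart. The HFS arrays, at 11.42, 11.29 and 11.48, also lay above all 6-OHDA arrays, with a difference of 0.14. On DOPA/HFS the Slc1a2 signal was 11.72, 11.53 and 11.26, a difference of 0.25 with overlap. The summed astrocyte markers, of which Slc1a2 is a member, ranged from 15.7 to 15.9 on 6-OHDA and from 15.7 to 16.0 on DOPA arrays.

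Among the transduction genes, Cacna1b encodes the pore of the N-type calcium channel that presynaptic Gi/o-coupled receptors inhibit. It had 12.25, 12.14 and 11.86 on 6-OHDA and 11.68, 11.74 and 11.81 on HFS, a difference of -0.34 (SE 0.16, limma adjusted p = 0.998). The ranges were separate but close. Itpr3, an IP3 receptor gene of the Gq pathway, had 6.39, 5.77 and 6.40 on 6-OHDA, 6.56 and 6.57 on the 2 DOPA arrays with a value, and 6.53 and 6.46 on 2 DOPA/HFS arrays. It differed by 0.38 in DOPA and 0.31 in DOPA/HFS (SE 0.21). Gna11, a Gq family subunit gene, had 8.92, 8.52 and 9.17 on 6-OHDA and 8.41 and 8.39 on 2 DOPA/HFS arrays, a difference of -0.47 (SE 0.26). Both rest on groups of 2 arrays, because single spots were marked as outliers.

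Rgs4 encodes a GTPase-activating protein that shortens Gq and Gi/o signals. It was the listed gene with an unadjusted p under 0.05, with a log2 signal of 15.06, 14.92 and 15.04 on 6-OHDA and 15.37, 15.53 and 15.24 on DOPA. The difference was 0.37 (SE 0.14), with all DOPA arrays above all 6-OHDA arrays, and the limma adjusted p was 0.99998. On HFS it was 14.69, 15.08 and 14.92, within or below the 6-OHDA range apart from replicate 2. Arrb1, the gene of beta-arrestin 1, had 6.70, 6.95 and 6.95 on 6-OHDA and 7.002, 7.13 and 6.97 on HFS, a difference of 0.17 (SE 0.28). Its difference was 0.16 in DOPA and 0.24 in DOPA/HFS, both with overlap.

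The genes with a pattern most like that of each receptor gene were ranked by Pearson correlation over the arrays, and the best 3 were taken. Those with an established symbol were Cd320 for Grm2 (0.92), Nup153 for Grm3 (0.91), Sdc2 for Grm4 (0.89, over 11 arrays), Wdr7 (0.93) and Ndc1 (0.93) for Grm7, and Cyp26b1 (0.92) and Tnfsf15 (0.89) for Grm8. The remaining places were held by predicted genes or unnamed transcripts. They are the extremes of 20407 genes over 12 arrays or fewer, and are given as a description.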

How the data were processed

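Total RNA of dorsal striatum punches was labelled with Cy3 and hybridised by the authors. They deposited scanner files of Agilent Feature Extraction 9.1, with a background-corrected linear intensity per spot, and a quantile-normalized log2 table, which served here as an alternative. Of 45018 spots, 1639 were controls. These and the outlier spots were dropped, and log2 intensities were quantile normalized across arrays, with spots of a probe averaged. A probe was above background on an array where a share of 0.5 of its spots was, and the brightest probe stood for a gene. Symbols of 10735 probes came from the RefSeq table of assembly GRCr8. All arrays were fitted with limma 3.58.1 (lmFit and eBayes, no covariates) under R 4.3.3. The fit was tested on simulated data. The methods' SAM test was not used here. The replicate number is the slide. Deviations from group means of the 18 pairs of arrays on 1 slide correlated at -0.29 to 0.48 (median 0.11). For pairs of different groups on other slides the median was -0.07. Arrays of 1 slide were thus more alike at the median, and a fit with the slide as block is given as an alternative. The number of arrays limits the precision.

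The receptor genes, the lists of partner and marker genes and the tests were chosen with earlier results of these data known, and the study itself names Grm4 from these arrays. Named were all receptor genes, per treatment the 3 listed partner genes with the largest change among those without overlap, and the 3 genes most like each receptor gene. The comparisons of HFS with DOPA and of DOPA/HFS with HFS were chosen after seeing the data. Alternatives were other scalings, background corrections, filters, probe rules, thresholds, outlier spots kept, only the arrays compared, and each array left out.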

Additional observations from a re-analysis of the deposited data

How the results depend on the processing

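Over 24 alternatives, the counts of receptor genes called in any comparison or by the F test and of called partner genes were 0 as in the main analysis, and the smallest limma adjusted p of any receptor gene was 0.354, for Grm5 in HFS vs DOPA. With the replicate block, which pairs the arrays of 1 slide, the difference of Grm4 was -0.43 in DOPA and -0.21 in HFS (limma adjusted p = 0.99998 and 0.980), and no call changed. The difference of Grm4 stayed negative in all 22 alternatives that gave a value, from -0.49 to -0.37 in DOPA and from -0.25 to -0.17 in HFS. This count was largely settled in advance. As the arrays did not overlap, leaving out a single array could not turn the sign. Grm4 had a single probe, so the filters and probe rules left its difference as it was. The replicate block and the fit of only the arrays compared also gave the same estimates. Of 54 differences of single receptor genes, 27 changed sign somewhere, 48 changed sign or moved by over 1.5 times, and their causes were not tested.

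Scaling to the 75th percentile gave Grm3 -0.0034 in HFS and -0.05 in HFS vs DOPA. Normexp correction gave Grm7 0.0062 in DOPA. Where outlier spots were kept, the other Grm8 probe became the brighter, so the Grm8 values of that setting come from a different probe. Keeping the outlier spots gave Grm4 0.08 and Grm7 -0.03 in DOPA/HFS, Grm7 -0.0053 in DOPA/HFS vs DOPA and -0.06 in DOPA/HFS vs HFS, Grm8 0.71 in DOPA/HFS vs HFS, interactions of -0.15 for Grm5, -0.04 for Grm7 and 0.66 for Grm8, and L-DOPA main effects of -0.04 for Grm7 and 0.38 for Grm8. The deposited log2 table gave Grm7 -0.05 in DOPA/HFS, -0.03 in DOPA/HFS vs DOPA, -0.11 in DOPA/HFS vs HFS, -0.09 in the interaction and -0.06 in the L-DOPA main effect, and Grm5 -0.14 in the interaction.

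Leaving out each array in turn gave the following ranges for differences that changed sign. In HFS vs 6-OHDA they were -0.17 to 0.10 for Grm2, -0.02 to 0.22 for Grm3, -0.01 to 0.64 for Grm5 and -0.09 to 0.13 for Grm7. In DOPA vs 6-OHDA they were -0.14 to 0.13 for Grm2, -0.05 to 0.23 for Grm3, -0.13 to 0.06 for Grm7 and -0.19 to 0.41 for Grm8. In DOPA/HFS vs 6-OHDA they were -0.35 to 0.23 for Grm4, -0.46 to 0.20 for Grm5 and -0.02 to 0.40 for Grm8. In DOPA/HFS vs DOPA they were -0.21 to 0.39 for Grm8. In the interaction of L-DOPA and HFS they were -0.39 to 0.29 for Grm5 and -0.0084 to 0.30 for Grm7. In the L-DOPA main effect they were -0.28 to 0.01 for Grm4, -0.03 to 0.13 for Grm7 and -0.29 to 0.0076 for Grm8. In the HFS main effect they were -0.07 to 0.22 for Grm4. In HFS vs DOPA they were -0.13 to 0.03 for Grm2, -0.14 to 0.13 for Grm3 and -0.07 to 0.15 for Grm7. In DOPA/HFS vs HFS they were -0.14 to 0.45 for Grm4 and -0.03 to 0.28 for Grm7.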
